A study of Mus musculus with 15 samples.

Results

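MH-S cells, an SV40-transformed murine alveolar macrophage line, were compared after 24 h with 1 µg/mL LPS from E. coli plus 20 ng/mL IFN-γ (M1) and after 24 h in medium alone (M0). The comparison used the 3 M1 and 3 M0 libraries of a series of 15, and all 16654 of 78317 gene identifiers that passed a filter on low counts were tested. The other 9 libraries, 3 each from cells given IL-4 at 20 ng/mL (M2), CaP microrods or SiO2 microrods, entered the same model and so contributed to the estimate of the spread. All wells held cells of the same passage that had been seeded 24 h before the stimulus, so the M0 and M1 libraries of a group differ as wells do. The rod libraries also differ by particle batch, and as they entered the estimate of the spread, the p-values measure the spread between wells and, in part, between these batches, but not between passages. LPS and IFN-γ were given together, so their effects cannot be told apart, and as in all bulk RNA a change in the number of responding cells and a change in RNA per cell cannot be told apart. Levels are given as CPM, the count scaled to the size of the library, with the SD over 3 libraries. A gene was called a DEG at an adjusted p below 0.05 in edgeR's quasi-likelihood test, with Benjamini-Hochberg adjustment over all genes tested, and an absolute log2 fold change above 0.5.

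LPS is sensed by TLR4 with its partners CD14 and MD-2, and the adaptors MyD88 and TRIF pass the signal to NF-κB, to MAP kinases and to the interferon regulatory factors. IFN-γ binds its own receptor and acts through JAK-STAT signalling, which in macrophages raises IRF1, guanylate-binding proteins, the class II transactivator CIITA and antigen presentation. Given together, these signals are the usual stimulus for classical activation, a state known for inflammatory cytokines, nitric oxide from iNOS and itaconate.

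The total count was 8459643 to 39201265 in the M0 libraries and 10117846 to 14879931 in the M1 libraries, so that 1 count was worth between 0.0263 and 0.116 CPM. Over the 500 most variable genes of these 6 libraries, the first principal component held 68.7% of the variance and parted the groups, and the second held 20.8% and set M0 replicate 3 (score -38) apart from M0 replicates 1 and 2 (27.2 and 13.5). Mitochondrially encoded transcripts made up 1.48% to 2.18% of the counts in M0 and 0.888% to 1.04% in M1. The 15 defining macrophage genes were all detected, with a summed level of 5980 to 7939 CPM in M0 and 8583 to 9409 CPM in M1. Of 20 genes of alveolar macrophage identity, 9 passed the filter, with a summed level of 443 to 625 CPM in M0 and 570 to 730 CPM in M1. Of the 9, 3 were DEGs higher in M1 and none was lower. With DESeq2 1 was called lower, and 1 was when M0 replicate 1 or M1 replicate 3 was left out. Siglecf and Car4, however, had at most 3 counts and Chil3, Ear1 and Ear2 none in any of the 6 libraries. The line thus carries the macrophage genes and part of the alveolar list but lacks these alveolar markers. Markers of epithelial cells, fibroblasts, endothelial cells, neutrophils and mast cells were near 0. The summed level of 11 epithelial markers was at most 0.579 CPM in any library, that of 11 fibroblast and endothelial markers at most 1.78 CPM, and that of 12 neutrophil and mast cell markers at most 2.39 CPM. The summed level of 11 lymphocyte markers was 0.463 to 1.08 CPM in M0 and 9.04 to 14.7 CPM in M1. Of these markers only Cd79b passed the filter, and it alone was at 8.94 to 14 CPM in M1.

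M1 cells differed from M0 cells in 2342 DEGs, 14.1% of the genes tested, of which 1615 were higher (9.7% of all tested) and 727 lower (4.37%). The rises were also the larger changes. Among the DEGs, 1288 rose and 404 fell more than 2-fold, and 201 rose but 42 fell more than 8-fold. Genes that rose had a median level of 3.83 CPM in M0, against 15 CPM for genes that fell and 8.66 CPM for all genes tested. As the M0 level also enters the choice of these genes and the filter, this order is in part built in. The M1 and M0 libraries did not overlap for 1589 of the higher and 713 of the lower DEGs, where 20.2% and 12% of all genes tested had M1 wholly above or wholly below M0. The count of DEGs rested on replication, with 1516 without M1 replicate 2 and 1511 without M1 replicate 3, and 1161 genes (875 higher and 286 lower) were DEGs in each of the 6 models that left out 1 M0 or M1 library. These are called stable DEGs here.

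**Figure D1:**
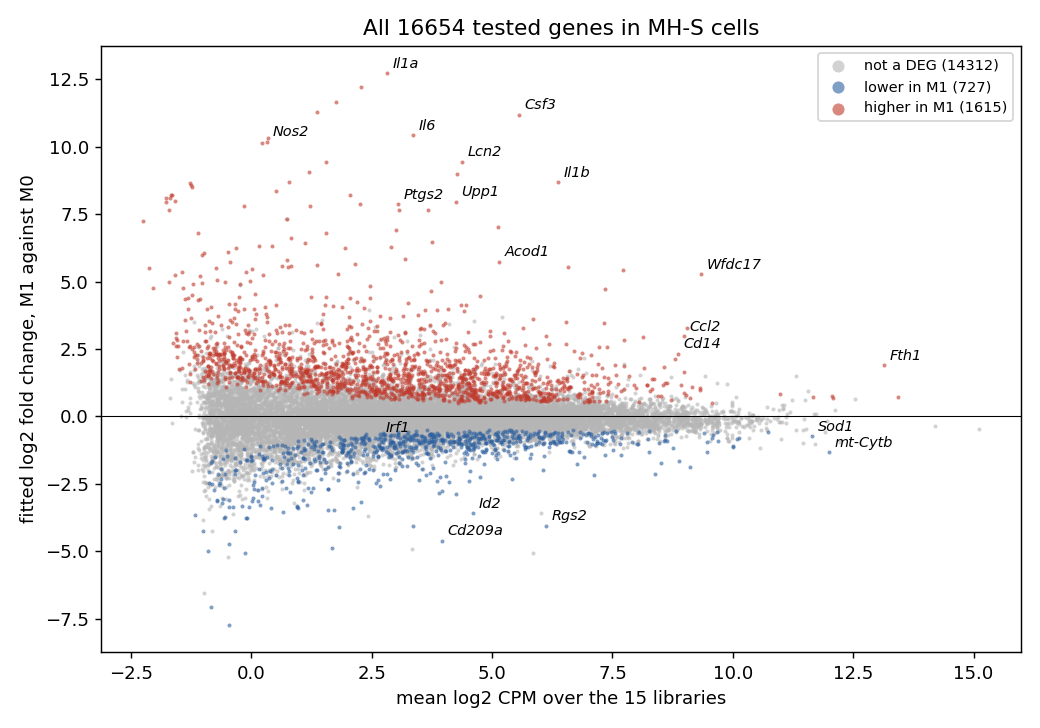
Fitted log2 fold change of M1 against M0 (vertical axis) and mean log2 CPM over the 15 libraries (horizontal axis) for all 16654 genes tested, with the 1615 DEGs higher in M1 in red, the 727 lower in M1 in blue and the others in grey. The rises reach further from 0 than the falls, and the fitted values of genes without counts in M0, such as Il1a and Nos2, depend on the prior count of the model.

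By median fold change, inflammatory cytokines, CC chemokines and acute-phase proteins stood highest among the lists with more than 1 gene tested. Each of these lists holds genes at the floor in M0 that passed the filter only through libraries of other groups. The counts given for each list below stand beside shares of 9.7% higher and 4.37% lower over all genes tested. Counts of list members with an unadjusted p below 0.05 stand beside 4609 of all 16654 genes tested. Il1b, the precursor of the fever-inducing cytokine IL-1β, was at 0.817, 1.11 and 1.27 CPM in M0 replicates 1 to 3 and at 359, 425 and 450 CPM in M1. The groups were far apart, and the fitted change was 412-fold (log2 8.69 ± 0.51 (SE), adjusted p = 8.97e-08). Il6, which drives the acute-phase response, had 2 counts in M0 replicate 1 and none in the other M0 libraries, and was at 53.6, 45.5 and 55 CPM in M1, a ratio of 1592 over the pooled M0 level with a 95% counting interval of 441 to 13150. Nos2, which encodes iNOS, had no count in any M0 library and was at 4.13, 6.02 and 8.46 CPM in M1, at least 29.9-fold above the level of 3 counts per M0 library (adjusted p = 1.69e-05). Nos2 was thus switched on but stayed low, below the median of 8.66 CPM of all genes tested in M0. Csf3, encoding the granulocyte growth factor G-CSF, rose from 0.0656 ± 0.0659 to 235 ± 52.9 CPM, the largest rise of any gene above the floor of 3 counts in M0 (log2 11.19 ± 0.64, adjusted p = 1.53e-09). Tnf rose less, from 26.7 ± 8.41 to 113 ± 30.1 CPM, a 4.25-fold change from a level that was already measurable in unstimulated cells.

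Of 17 inflammatory cytokine genes tested, 12 rose and 1 fell, all of them stable DEGs, and their median log2 fold change was 3.62, where that of all genes was -0.01. At or below 3 counts in each M0 library were 5 of the 17, which all rose and passed the filter only through other groups. With at least 10 counts in every library, 9 genes were tested, 5 rose, 1 fell and their median was 1.57. The pyrogenic Il1a had no count in M0 and reached 35.6 ± 2.7 CPM. The set included genes with restraining roles as well, with Il1rn, the IL-1 receptor antagonist, at 155 CPM against 12.8, and Il10 at 1.46, 2.8 and 2.92 CPM in M1 against at most 0.065 CPM in M0. Il27 rose 21.4-fold and its partner subunit gene Ebi3 rose from 21 to 62.8 CPM. Il15, a cytokine that maintains NK and memory T cells, was the one that fell, from 10.8, 10.1 and 14.2 CPM to 4.47, 3.97 and 5.83 CPM (log2 -1.30 ± 0.23, adjusted p = 0.00206). Il12b, the p40 subunit associated with IFN-γ-primed macrophages, did not pass the filter, with 3 to 5 counts in each M1 library and none in M0.

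CC chemokines, which draw monocytes, T cells and dendritic cells, rose in 8 of 12 tested genes and fell in 1, again all stable DEGs. Their median log2 fold change was 3.13, or 2.96 with Ccl17 and Ccl12, which had no count in M0, at their lower bounds. With at least 10 counts in every library, 8 genes were tested, 5 rose and their median was 2.95. Ccl2 and Ccl4 were among the genes that gained most CPM of all. Ccl2, the main monocyte attractant, rose from 184, 186 and 232 CPM to 1698, 1489 and 1516 CPM, and Ccl4 rose 9.79-fold to 1510 ± 297 CPM. Ccl5, a T cell attractant, rose 43-fold from 21.9 ± 5.28 to 948 ± 121 CPM. Ccl22 rose 200-fold to 40.8 ± 9.37 CPM and Ccl17 from no count to 5.97 ± 0.164 CPM, though both genes are better known from IL-4-activated cells. Ccl24, another gene of that kind, fell from 0.849 ± 0.192 to 0.0838 ± 0.0145 CPM. In the M2 cells of this series, which were given IL-4, Ccl22 and Ccl17 had means of only 0.407 and 0.111 CPM.

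CXC chemokines were few. Among 14 listed CXC and CX3C genes, 4 passed the filter, of which Cxcl2 and Cxcl10 rose and Pf4 and Cxcl14 fell. Cxcl10, a T cell attractant induced by interferons, was at 1.76, 1.89 and 3.24 CPM in M0 and at 14.7, 14.1 and 18.6 CPM in M1, a 7.34-fold rise. Cxcl9, by contrast, which is the chemokine most specific to IFN-γ, had no count in any of the 6 libraries. Cxcl1 had 1 count in M1 and Cxcl3 at most 23.

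The genes of acute-phase and antimicrobial proteins rose in 6 of 9 tested, with a median log2 fold change of 4.71, and none fell. With at least 10 counts in every library, 5 genes were tested, 3 rose and their median was 3.09. Lcn2, whose product withholds iron from bacteria by binding their siderophores, rose from 0.118 ± 0.104 to 104 ± 18.8 CPM, and Saa3 from 28.2 ± 7.06 to 736 ± 120 CPM. Wfdc17, a small secreted inhibitor-like protein, reached 3644, 2595 and 2528 CPM from 76.8, 60.6 and 88.6 CPM. Among the DEGs with no overlap, only Fth1 and Ftl1 gained more CPM. Slpi, an inhibitor of neutrophil elastase, rose 8.62-fold and Wfdc21 had no count in M0 and 24.9 ± 2.07 CPM in M1. Lyz2, which encodes lysozyme, was at 1847 ± 376 CPM in M0 and 1685 ± 143 CPM in M1 (log2 -0.13, adjusted p = 0.63).

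**Figure D2:**
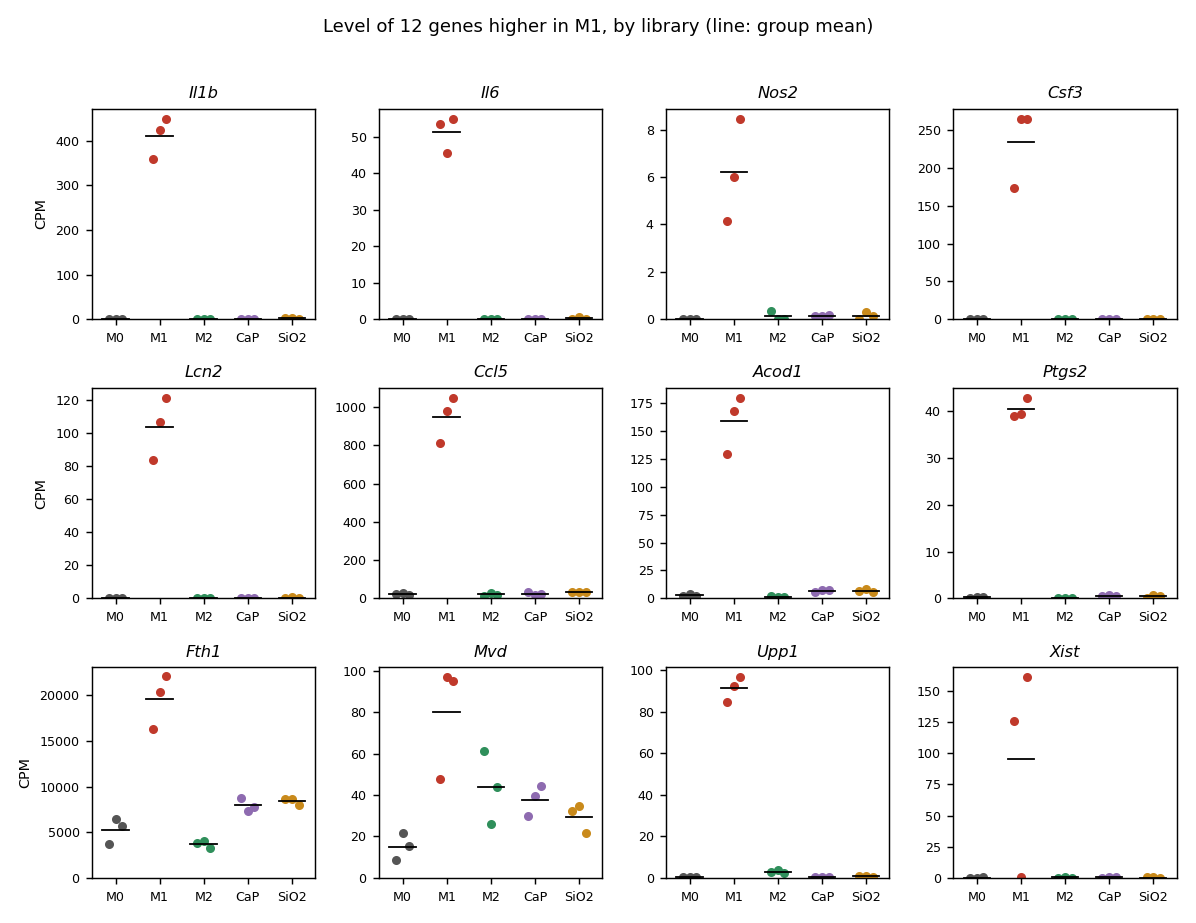
Level in CPM (vertical axis, linear from 0) of 12 genes higher in M1, with 1 point per library in the M0, M1, M2, CaP and SiO2 groups and a line at each group mean. For Il1b, Il6, Nos2, Csf3, Lcn2, Ccl5, Acod1, Ptgs2, Fth1, Mvd and Upp1 every M1 library lies above every M0 library by a wide margin, whereas Xist is high in 2 M1 libraries and near 0 in M1 replicate 2.

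In all, 72 of the genes tested were at or below 3 counts in each M0 library, and 53 of them were DEGs higher in M1, 18 of which had no count at all in M0. Such a gene could pass the filter on low counts only through libraries of other groups. The 53 of 72 is therefore no measure of how often genes off in M0 rise. When every gene with a count was tested, 269 were off in M0 and higher. Those with the highest level in M1 were Il6, Il1a, Wfdc21, Has1, Gm14275, Urah, Vnn3, Batf, Gstt4, 4930438A08Rik, Zfp811, a gene without a symbol, Marcks, Bik and Muc5ac. Has1, which makes the matrix polymer hyaluronan, had 6 counts over the M0 libraries and 15, 26.4 and 31 CPM in M1, a ratio of 249 with a counting interval of 114.4 to 679. Batf, an AP-1 family partner of interferon regulatory factors, was at 11.2, 14.7 and 13.8 CPM in M1, at least 63.8-fold above the floor, and Urah, an enzyme of urate breakdown, at least 83.6-fold. Ccr7, the receptor that guides cells to lymph nodes, went from no count to 2.13 ± 0.75 CPM. Csf2 (GM-CSF), Lif, Saa1, Nqo1 and Spic belonged to the same set with 0.982 to 5.56 CPM in M1. The size of the set varied with the libraries and the floor. The count was 186 genes without M0 replicate 1, the deepest of the 6 libraries, it was 84 without M0 replicate 2 and also 84 without M0 replicate 3, and with a floor of 10 counts it was 161.

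In the other direction the levels were lower. At or below 3 counts in each M1 library were 156 genes tested, and 39 of them were DEGs lower in M1, of which 2 had no count. These genes likewise passed the filter only through libraries of other groups, so 39 of 156 is no measure of how often such genes fall. None of the 39 reached 5 CPM in M0. Chosen after their values were seen, the highest were Tlr5, the receptor for bacterial flagellin, at 1.94 ± 0.187 CPM in M0 and 0.158 ± 0.0553 in M1 (ratio 11.8, counting interval 5.44 to 32.3), and Lifr, the receptor for LIF, at 1.81 ± 1.08 CPM in M0 with 2 counts in all in M1 (ratio 33.1, interval 9.16 to 273). The count of 39 was 106 with a floor of 10 counts, which then included Ly86 and Gm27168, at 5.55 and 5.18 CPM in M0 and at most 7 counts in an M1 library.

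Among 20 genes of the LPS receptor and its adaptors, 4 rose (20%) and 2 fell (10%), where 9.7% and 4.37% of all genes tested did. The same 6 were stable DEGs. Cd14, the co-receptor that hands LPS to TLR4, was at 244, 304 and 294 CPM in M0 and at 1509, 1414 and 1284 CPM in M1, 5-fold higher with little spread (log2 2.32 ± 0.14, adjusted p = 9.35e-08). Irak3, a kinase-dead inhibitor of the pathway, rose from 9.2 to 78.7 CPM, and Ikbke and Ikbkg, which encode kinase complex members upstream of IRF3 and NF-κB, rose as well. Tirap, the adaptor that brings MyD88 to the membrane, fell from 34 to 19.2 CPM. Ly86, the MD-1 partner of the receptor-like CD180, fell 11.1-fold from 5.55 ± 0.435 to 0.501 ± 0.169 CPM. Tlr4 itself was at 3.2 and 4.36 CPM (log2 0.46, adjusted p = 0.23) and Myd88 at 39 and 47.9 CPM (log2 0.30, adjusted p = 0.53), neither distinguishable at this spread.

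Downstream, 8 of 17 genes of NF-κB subunits and inhibitors rose and none fell, with a median log2 fold change of 0.85, and 6 of the 8 were stable. Among them were inhibitors and co-regulators. Nfkbia (IκBα), the first target gene in the feedback on NF-κB, rose from 209, 335 and 262 CPM to 1035, 1244 and 1256 CPM, Nfkbiz (IκBζ), needed for Il6 and Lcn2 expression, rose 9.35-fold, and Bcl3 rose from 2.79 to 13.8 CPM. Of the subunits, Nfkb2 rose from 14.4 to 40.4 CPM (log2 1.49, adjusted p = 0.0174) but was called in 2 of the 6 models without 1 library, with an adjusted p of up to 0.0769 without M0 replicate 1. Rela was at 17.6 and 18 CPM and Nfkb1 at 68.2 and 93.2 CPM (adjusted p = 0.95 and 0.14). Tnfaip3 (A20), often the strongest feedback inhibitor, was at 2.3 and 4.24 CPM and did not pass the threshold (log2 0.92, adjusted p = 0.0528, a DEG in 1 of the 6 models without 1 library).

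Promoter sequences of 4 genes of the response are shown because their windows carry the letters that the transcription factors of these pathways are known to bind. Each line is the stretch of 250 bases before the RefSeq start on build GRCm38.p6, 5′ to 3′ on the strand of the gene, with matches to the motifs in capitals. The motifs searched on both strands were GGG and CC with 5 bases between them for NF-κB, its narrower form GGGA and TTTCC with 1 base between them, TTC and GAA with 3 bases between them for the GAS element of the IFN-γ response, and a pair of GAAA with 2 bases between them for the ISRE, and the broad and narrow NF-κB forms overlap by construction. The narrower form was added after the results were seen. Il6 and Nfkbia hold the narrow NF-κB form, Cxcl10 an ISRE beside broad NF-κB matches, and Irf1 a GAS element beside broad NF-κB matches.
Il6, chr5:30012864-30013113, plus strand: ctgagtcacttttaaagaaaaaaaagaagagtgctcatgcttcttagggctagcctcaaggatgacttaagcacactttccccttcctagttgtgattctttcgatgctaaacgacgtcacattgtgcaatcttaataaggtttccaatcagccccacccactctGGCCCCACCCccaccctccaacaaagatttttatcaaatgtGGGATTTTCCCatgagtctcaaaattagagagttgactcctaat
Nfkbia, chr12:55492648-55492897, minus strand: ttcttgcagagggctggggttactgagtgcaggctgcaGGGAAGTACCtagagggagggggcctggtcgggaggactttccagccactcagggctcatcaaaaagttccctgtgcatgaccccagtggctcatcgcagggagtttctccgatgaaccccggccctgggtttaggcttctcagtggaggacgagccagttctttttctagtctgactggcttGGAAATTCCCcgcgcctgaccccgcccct
Cxcl10, chr5:92348890-92349139, minus strand: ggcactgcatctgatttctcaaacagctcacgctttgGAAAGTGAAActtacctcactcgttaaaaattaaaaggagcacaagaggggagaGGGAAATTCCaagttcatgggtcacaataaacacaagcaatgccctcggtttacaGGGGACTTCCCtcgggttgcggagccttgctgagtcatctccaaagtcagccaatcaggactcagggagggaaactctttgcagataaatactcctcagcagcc
Irf1, chr11:53769764-53770013, plus strand: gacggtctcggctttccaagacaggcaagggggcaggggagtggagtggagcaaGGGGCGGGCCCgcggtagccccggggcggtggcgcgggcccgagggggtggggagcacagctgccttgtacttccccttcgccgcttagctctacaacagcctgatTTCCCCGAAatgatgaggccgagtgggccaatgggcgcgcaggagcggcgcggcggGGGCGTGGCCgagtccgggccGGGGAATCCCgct

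Over all 32851 promoter windows in the table, which run from 250 bases before to 50 bases after a start, 50.8% held the broad NF-κB letters, 0.411% the narrow form, 8.3% a GAS element and 3.44% an ISRE, and among windows of tested genes the shares were 66%, 0.437%, 6.67% and 3.24%. The 1119 windows of 867 genes higher in M1 held them in 61.8%, 0.715%, 8.58% and 4.83%, and the 657 windows of 499 genes lower in M1 in 62.3%, 0.304%, 6.24% and 4.57%. The narrow NF-κB form stood before 7 matched genes that were higher, among them Cxcl2, Il6, Nfkb2, Nfkbia and Tfr2, and before 2 that were lower, Neurl3 and Pglyrp1. A match is a description of letters in this window and not a binding site.

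Feedback inhibitors of cytokine and MAP kinase signalling rose in 9 of 17 tested genes and fell in 1, with a median log2 fold change of 1.45. Of the 9 rises 6 were stable, and DESeq2 called 10 higher and 3 lower. With at least 10 counts in every library, 12 genes were tested, 5 rose, 3 fell and their median was 0.67. The SOCS family, which blocks JAK signalling, was prominent, with Socs3 at 1.9, 2.28 and 2.2 CPM in M0 and 48.2, 75.3 and 76.5 CPM in M1. Cish rose from 0.0656 ± 0.0659 to 5.74 ± 2.48 CPM and Socs2 from 0.302 to 2.62 CPM, both known as targets of STAT5. Usp18, which limits type I interferon signalling, rose from 3.02 to 17.9 CPM, and the MAP kinase phosphatase gene Dusp1 from 24.1 to 81 CPM. Rgs1, a brake on G protein signalling, was the stable DEG that fell, from 25.3 to 9.91 CPM. Without M1 replicate 1 the number that fell was 2.

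Of 14 genes of the IFN-γ receptor and of JAK-STAT signalling, 5 rose and 1 fell, but only 2 of the 5 (Stat3 and Ptpn1) were stable, and 2 were called without M0 replicate 1, 2 or 3 or without M1 replicate 2 or 3. Ifngr1, the ligand-binding chain of the receptor, fell from 99.5, 122 and 119 CPM to 54.6, 54.2 and 58.3 CPM in a stable DEG (log2 -1.03 ± 0.18, adjusted p = 0.00197), while Ifngr2 was at 119 and 162 CPM (adjusted p = 0.21).

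Irf1, a primary response gene of IFN-γ, was lower in M1 and not higher. It was at 6.14, 8.2 and 7.41 CPM in M0 and at 4.21, 4.17 and 4.28 CPM in M1, with no overlap (log2 -0.77 ± 0.21, adjusted p = 0.029). The call was lost without each of M0 replicates 2 and 3 and M1 replicates 1, 2 and 3, with an adjusted p of up to 0.0956. Among the 12 tested interferon regulatory factors and partners, which had a median log2 fold change of -0.13, 2 rose, namely Irf7, the amplifier of type I interferon, from 6.93 ± 0.98 to 37.1 ± 11.5 CPM, and Batf. Irf8 was at 104 and 87.5 CPM (adjusted p = 0.44), and Ciita, with 3 counts in M1 replicate 1 and none elsewhere, did not pass the filter.

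Antigen presentation, which IFN-γ is known to raise, had higher DEGs at a share near the 9.7% of all genes tested, with 2 of 17 class I genes (11.8%) and none in the class II and immunoproteasome lists. None of 5 immunoproteasome and proteasome activator genes was a DEG in edgeR or DESeq2, 1 had an unadjusted p below 0.05, and their log2 fold changes ran from -0.30 to 0.43 with standard errors of 0.137 to 0.22. Psmb8 was at 176, 241 and 234 CPM in M0 and 271, 303 and 302 CPM in M1 (adjusted p = 0.115), so that the groups did not overlap but the difference did not pass. None of 9 MHC class II genes was called in edgeR, 3 had an unadjusted p below 0.05, all lower in M1, and DESeq2 and the model without M0 replicate 1 each called 2 as lower. Cd74, the class II invariant chain, was at 573 ± 134 and 832 ± 18.4 CPM (log2 0.54 ± 0.29, adjusted p = 0.244). The class II chains H2-Aa and H2-Ab1 had at most 1 count per library and H2-Eb1 none.

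Of 17 genes of MHC class I and peptide loading, H2-T23 and Tapbpl were higher DEGs and neither was stable, with 0 called without M0 replicate 1, M0 replicate 3, M1 replicate 2 or M1 replicate 3, 1 called without M0 replicate 2 or M1 replicate 1, and 1 with the replicate number as a block. B2m was at 1061 ± 208 CPM in M0 and 907 ± 138 CPM in M1 (log2 -0.23 ± 0.16, adjusted p = 0.39). Among the 8 tested interferon-inducible GTPases that attack vacuoles of pathogens, Gbp2, Gbp3, Gbp7 and Irgm1 rose, the first 3 as stable DEGs. Gbp2 was at 0.237, 0.26 and 0 CPM in M0 and at 3.01, 2.87 and 3.79 CPM in M1, a clear but low-level rise. Igtp was at 9.8 and 11.1 CPM (adjusted p = 0.53), while Gbp4, Gbp5 and Iigp1, usually strongly induced by IFN-γ, had at most 5 counts per library. The split of reads between near-identical Gbp, Oas and H2 genes is uncertain.

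Antiviral genes, which type I interferon also induces, rose in 17 of 33 tested with none falling, and 15 of the 17 were stable. Their median log2 fold change was 0.99. Isg15, a ubiquitin-like modifier, rose 10.7-fold from 1.02 ± 0.626 to 9.55 ± 2.49 CPM, and Rsad2 (viperin) and Ifit3 rose to 2.98 and 2.78 CPM. The more abundant members rose by smaller factors, with Oasl1 at 32.2 and 113.9 CPM, Oas1a at 52.2 and 119 CPM, Samhd1 at 127 and 257 CPM and Bst2 (tetherin) at 64.4 and 128 CPM. Mx1 had 1 count in M1 and Mx2 at most 5 counts in a library.

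**Figure D3:**
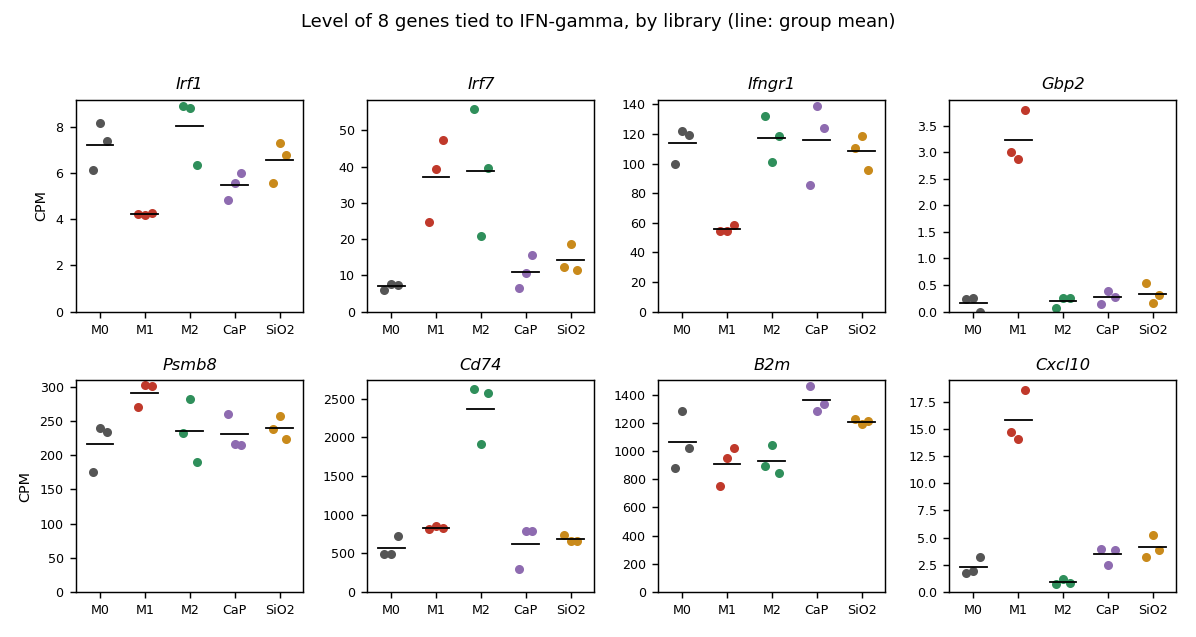
Level in CPM (vertical axis, linear from 0) of 8 genes tied to IFN-γ, with 1 point per library in the M0, M1, M2, CaP and SiO2 groups and a line at each group mean. For Cxcl10 and Gbp2 every M1 library lies above every library of the other groups, Irf7 is 5.41-fold higher than in M0, Psmb8, Cd74 and B2m did not pass the threshold, and Irf1 and Ifngr1 lie below M0.

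**Figure D4:**
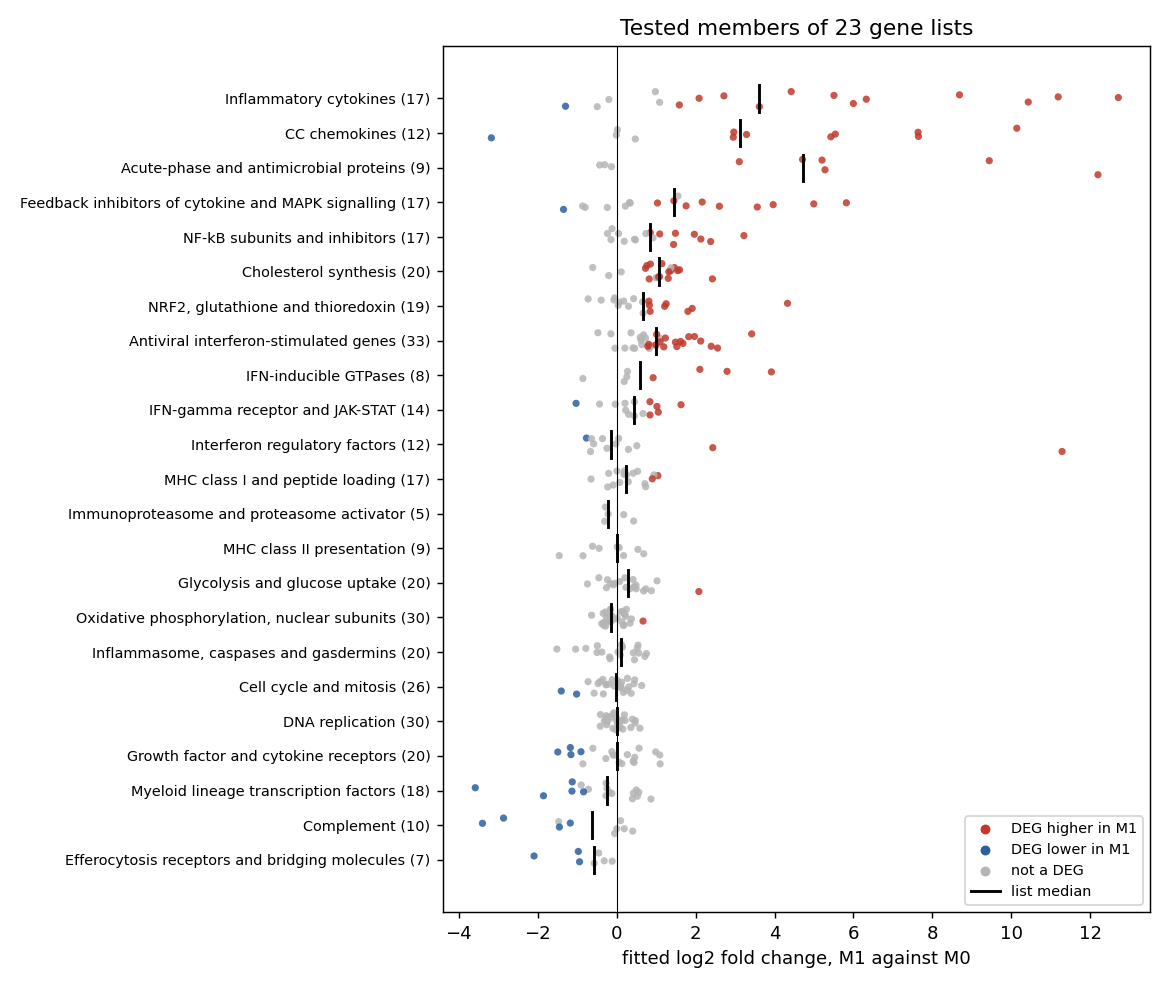
Fitted log2 fold change of M1 against M0 (horizontal axis) for each tested member of 23 gene lists (rows, number tested in parentheses), in red for DEGs higher and blue for DEGs lower in M1 and grey otherwise, with a black bar at the list median. Cytokines, CC chemokines and acute-phase genes have high medians (3.62, 3.13 and 4.71, the second 2.96 with Ccl17 and Ccl12 at their bounds), cholesterol synthesis lies around 1.07, and the immunoproteasome, MHC class II, glycolysis and DNA replication lists lie near 0. With at least 10 counts in every library the first 3 medians were 1.57, 2.95 and 3.09, over fewer genes.

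Among effectors, Acod1, which makes the antibacterial metabolite itaconate, rose 53.2-fold from 2.32, 4.16 and 2.55 CPM to 129, 167 and 179 CPM (adjusted p = 1.36e-08). Of the 23 genes of itaconate and the TCA cycle 5 rose and none fell, but with Acod1 only Cs (citrate synthase) was a stable DEG, and the number was 2 without M0 replicate 1 or M1 replicate 2 and 3 without M1 replicate 3. Beside Nos2, the arginine transporter gene Slc7a2 rose from 5.72 to 23.9 CPM. In the list of nitric oxide, arginine and tetrahydrobiopterin genes 4 of 12 rose, and 2 did so without M0 replicate 1 or M0 replicate 2. Of 11 genes of the NADPH oxidase and of superoxide removal, 4 rose and 1 fell. The mitochondrial enzyme Sod2 went from 144 ± 6.89 to 521 ± 3.36 CPM, with hardly any spread, and the cytosolic Sod1 from 4284 ± 734 to 2587 ± 153 CPM, so the superoxide dismutases of different compartments moved in opposite directions. Sod1 was also below its M0 mean in the other groups, at means of 2642 CPM in M2, 2957 in CaP and 3534 in SiO2. Its log2 difference of M1 minus M2 was -0.03 (adjusted p = 0.91). The catalytic subunit gene Cybb was at 544 and 611 CPM (adjusted p = 0.71).

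Of 14 prostaglandin and leukotriene genes 3 rose and 3 fell, of which the 3 rises and 1 fall were stable. Ptgs2 (COX-2), the inducible enzyme, rose 234-fold from 0.079, 0.26 and 0.347 CPM to 39, 39.4 and 42.9 CPM, and Ptges, which makes prostaglandin E2, and its receptor gene Ptger2 rose to 11.9 and 6.44 CPM. Ptgs1 (COX-1), the constitutive enzyme, fell 3.94-fold from 49 ± 14.7 to 12.4 ± 4.1 CPM. Hpgds and Tbxas1, the synthases of prostaglandin D2 and thromboxane, were lower DEGs that were not stable, and without M1 replicate 3 the lower DEGs of this list numbered 1 of 14 in place of 3.

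In a list of iron, zinc and metallothionein genes 7 of 14 tested rose, 5 of them stable, and 1 fell. Fth1, the ferritin heavy chain, rose from 3679, 6490 and 5705 CPM to 16285, 20382 and 22100 CPM, the largest gain in CPM among DEGs with no overlap. The transporter genes Slc11a1 (NRAMP1) and Slc11a2 (DMT1) rose to 171 and 56.1 CPM and Trf (transferrin) to 66.2 CPM. Ftl1, the light chain, was higher (8959 ± 2560 and 14735 ± 963 CPM, adjusted p = 0.0418), but this was no DEG with the replicate number as a block (adjusted p = 0.0597) and was called in 1 of the 6 models without 1 library, and reads of Ftl1 and of its copies such as Ftl1-ps1 may have been split between them. The metallothionein Mt1 fell from 1260 ± 102 to 717 ± 34.7 CPM, a call lost only without M1 replicate 3 (adjusted p = 0.0522).

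Cholesterol synthesis was the metabolic pathway that moved most as a group. Of 20 genes tested 15 rose and none fell, with a median log2 fold change of 1.07 and 12 of the 15 stable. Mvd, which makes isopentenyl diphosphate, was at 8.4, 21.5 and 15.3 CPM in M0 and 47.9, 97.1 and 95 CPM in M1, and Fdps rose from 452 ± 50.1 to 933 ± 37.5 CPM. Srebf2, the regulator of the pathway, rose from 50.2 to 126 CPM, and Hmgcs1, Fdft1, Msmo1 and Cyp51 from 15.6, 53.3, 97.8 and 27.8 CPM to 42.9, 132, 216 and 58 CPM. Insig1, the sterol sensor partner, was at 402 ± 173 and 264 ± 63.1 CPM (adjusted p = 0.201). Abcg1, which exports cholesterol, was a lower DEG (log2 -1.33, adjusted p = 0.0358) in 2 of the 6 models without 1 library, with an adjusted p of up to 0.146 without M0 replicate 1.

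Glycolysis, which classical activation is known to raise, gave 1 DEG in 20, Pfkfb3, the kinase that makes the activator of phosphofructokinase, which rose from 1.61 to 6.35 CPM. The median log2 fold change of the list was 0.29, and Slc2a1, the main glucose transporter gene, was at 184 and 258 CPM (adjusted p = 0.5). Of 30 nuclear genes of oxidative phosphorylation 1 rose, Cyc1, from 452 to 718 CPM, and none fell. Of the mitochondrially encoded genes, mt-Cytb was at 7105, 6100 and 5678 CPM in M0 and at 3026, 2297 and 2198 CPM in M1 (adjusted p = 0.0346). This was the largest loss in CPM among DEGs with no overlap, but mt-Cytb was called in none of the 6 models without 1 library. mt-Nd4 fell from 526 to 282 CPM (adjusted p = 0.00199), while mt-Co1 was at 1624 and 1526 CPM (adjusted p = 0.844). These genes moved with the smaller mitochondrial share of the M1 libraries given above, and what part that share has in them was not tested.

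Stress genes rose in part. Of 19 genes of NRF2, glutathione and thioredoxin 8 rose and none fell, 6 of them stable, with Gsr (glutathione reductase) at 20.2 ± 1.82 and 70.8 ± 12.1 CPM and the NRF2 target Nqo1 from 5 counts in all M0 libraries to 1.73 ± 0.371 CPM. Hmox1, another such target, was at 81.8 and 129 CPM (adjusted p = 0.11). In the unfolded protein and integrated stress response 5 of 19 rose, or 3 without M0 replicate 1 or M1 replicate 3. Ddit3 (CHOP) was at 11.5, 16.8 and 14.5 CPM in M0 and 74.6, 77.3 and 80.6 CPM in M1, whereas the chaperone Hspa5 (BiP) was at 507 and 558 CPM (adjusted p = 0.65). None of 10 heat-shock chaperones and none of 30 ribosomal protein genes was a DEG in edgeR or DESeq2, and none of them had an unadjusted p below 0.05.

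Of 17 genes of the BCL2 family and of survival 5 rose, 3 of them stable, and 12 were not called. Bcl2a1d, Bcl2a1a and Bcl2a1b, the near-identical genes of the NF-κB-driven survival protein A1, rose to 284, 155 and 129 CPM from 44.5, 24.7 and 24.8 CPM, and their reads cannot be fully told apart. Birc3 and Xiap, inhibitors of apoptosis, were the other higher DEGs and were not stable. The count was 3 without M1 replicate 2 or M1 replicate 3, and 1 passed as lower without M0 replicate 1. Bcl2l1 was at 19.1, 83.4 and 35.4 CPM in M0 and 55.2, 285 and 276 CPM in M1, a wide spread within both groups (adjusted p = 0.0739). None of 20 inflammasome, caspase and gasdermin genes was a DEG, and DESeq2 called 1 in each direction. An unadjusted p below 0.05 was found for 6 of the 20 (3 in each direction), where 4609 of all 16654 genes tested had one. Casp1 was at 35.3 and 38.2 CPM and Nlrp3 at 2.46 and 3.89 CPM (adjusted p = 0.77 and 0.44). With the replicate block 1 gene, Nlrp1b, passed as lower, and 1 did so without M0 replicate 1 or M0 replicate 2, while 1 passed as higher without M0 replicate 2 or M1 replicate 1.

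Proliferation genes of this transformed line moved little. Of 30 DNA replication genes none was a DEG in edgeR or DESeq2, 2 had an unadjusted p below 0.05 and the median log2 fold change was 0.01. Of 26 cell cycle genes 2 were lower DEGs (7.69%, where 4.37% of all genes tested were lower) and none was higher. Ccnd2 (cyclin D2) fell from 74.8 ± 9.39 to 28.3 ± 2.27 CPM as a stable DEG. Top2a was lower (403 and 200 CPM, adjusted p = 0.0262) but was not called without M0 replicate 1, M1 replicate 2 or M1 replicate 3. Ccnd1 was at 121 and 167 CPM (adjusted p = 0.19).

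On the cell surface, costimulatory and checkpoint genes rose in 5 of 15 tested, all stable, and none fell. Cd274 (PD-L1) was at 0.817, 1.04 and 2.08 CPM in M0 and 12.8, 9.98 and 11.7 CPM in M1, Cd83 rose from 0.668 to 10.8 CPM and Slamf7 from 0.139 to 2.45 CPM. The classical B7 genes Cd80 and Cd86 were at 4.3 and 6.09 CPM and at 4.74 and 7.23 CPM (adjusted p = 0.21 and 0.14). Fpr1, the receptor for formylated bacterial peptides, rose from 0.156 to 8 CPM, and the T cell chemokine receptor gene Cxcr3 fell from 10.1 to 1.94 CPM. The Fc receptor genes Fcgr1, Fcgr2b and Fcgr4 rose to 43.3, 173 and 46.2 CPM, while Fcgr3 fell from 741 ± 134 to 429 ± 4.69 CPM, and Fcer1g, the shared signalling chain and most abundant member of the list, was at 1929 and 2598 CPM and was not called.

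Lectin and scavenger receptors went both ways, with 6 of 19 higher (31.6%) and 3 lower (15.8%), where the shares over all genes tested were 9.7% and 4.37%. Marco, a scavenger receptor for bacteria, rose from 0.147 ± 0.165 to 2.18 ± 0.682 CPM, Msr1 from 27.1 to 77.4 CPM, and Clec4e (Mincle), which senses mycobacterial glycolipid, from 75.5 to 226 CPM. Cd209a, a DC-SIGN homologue, fell 24.5-fold from 21.7, 16.3 and 20.2 CPM to 1.03, 0.889 and 0.389 CPM, the largest fall of a gene above the floor. Clec7a (Dectin-1), the receptor for fungal β-glucan, fell from 11.1 to 3.02 CPM.

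The genes that fell included members of a list of myeloid lineage transcription factors. Of 18 myeloid transcription factors 5 fell (27.8%, where 4.37% of all genes tested fell) and none rose in edgeR or DESeq2. Of the 5, 4 were stable, and 1 gene of the list had an unadjusted p below 0.05 with a higher value in M1. 1 gene passed as higher without M0 replicate 1 or M0 replicate 2. Id2, an inhibitor of E proteins, was at 23.7, 38.3 and 30.5 CPM in M0 and 2.67, 2.32 and 2.72 CPM in M1 (log2 -3.58 ± 0.25, adjusted p = 4.25e-07), the smallest p of any gene that fell. Klf4 fell from 10.9 ± 1.71 to 2.99 ± 0.593 CPM, and Cebpa, a factor of myeloid differentiation, from 9.18 to 4.18 CPM. Spi1, which encodes the lineage factor PU.1, was at 82.1 and 116 CPM (adjusted p = 0.32).

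Of 10 complement genes 4 fell, 3 of them stable, and none rose in edgeR or DESeq2 or had an unadjusted p below 0.05 with a higher value. C5ar2, the second C5a receptor, fell from 62.8, 31.2 and 42.4 CPM to 7.14, 5.81 and 5.83 CPM, and C1qa, a chain of the first complement component, from 3.82 ± 2.29 to 0.312 ± 0.381 CPM. The efferocytosis list, with 7 genes tested, gave 3 lower DEGs, among them the integrin subunit Itgb5 and the purine receptor P2ry12 as stable DEGs. Mertk and Axl, the main receptors of this process, had at most 5 counts per library. Of 20 growth factor and cytokine receptors 4 fell (20%, where 4.37% of all genes tested fell), but only Csf2rb2 was stable. In this list 2 were called lower without M0 replicate 2 or M0 replicate 3 and 1 without M1 replicate 2, and 1 was called higher without M1 replicate 1. Csf1r, the receptor for the macrophage growth factor, was at 123, 195 and 177 CPM in M0 and 61, 93.2 and 110 CPM in M1 (log2 -0.90 ± 0.28, adjusted p = 0.0438) and was called in 2 of the 6 models without 1 library, with an adjusted p of up to 0.141 without M1 replicate 1.

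**Figure D5:**
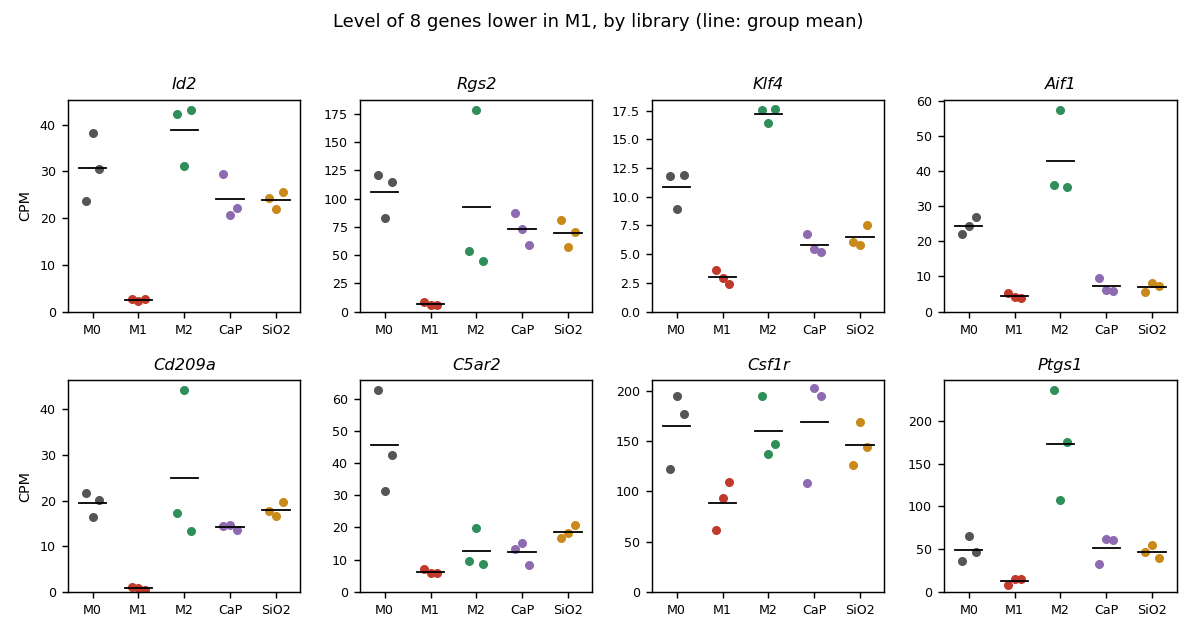
Level in CPM (vertical axis, linear from 0) of 8 genes lower in M1, with 1 point per library in the M0, M1, M2, CaP and SiO2 groups and a line at each group mean. For Id2, Rgs2, Cd209a, Ptgs1, Aif1 and C5ar2 every M1 library lies below every library of the other groups. Aif1, Klf4 and C5ar2 also lie below M0 in the CaP and SiO2 groups, and C5ar2 in M2 as well.

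Macrophage markers did not move together. Adgre1 (F4/80) rose from 42.8, 67.2 and 75.5 CPM to 264, 303 and 322 CPM, whereas Aif1 (IBA1) fell from 24.5 ± 2.49 to 4.47 ± 0.746 CPM, and Cd68, Lyz2 and Itgam did not pass the threshold (adjusted p = 0.57, 0.63 and 0.92). Of the 15 genes 4 were higher and 3 lower, with 2 higher without M0 replicate 1, M1 replicate 2 or M1 replicate 3. Cd79b, a signalling chain of the B cell receptor, rose 17.5-fold from 0.592 ± 0.248 to 11.9 ± 2.65 CPM, while Cd3d, Cd3e, Cd8a and Ms4a1 had no count in any of the 6 libraries and Cd79a at most 8 counts.

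Some of the strongest changes fell outside these lists. Upp1, which breaks down uridine, rose 250-fold from 0.373 ± 0.073 to 91.2 ± 5.95 CPM, and Lix1, a gene with little known role in macrophages, from 0.29, 0.39 and 0.232 CPM to 70.2, 58.2 and 58.5 CPM. Hdc, the enzyme that makes histamine, rose to 37.7 ± 13.5 CPM from 0.402 ± 0.264 CPM. Mir155hg, the host gene of the inflammatory microRNA miR-155, rose 110-fold to 14.8 ± 6.38 CPM, and the unnamed AC103947.2 from 0.695 to 65.2 CPM. Rgs2, which limits signalling by Gq proteins, fell 16.6-fold from 121, 82.9 and 115 CPM to 8.17, 5.47 and 5.64 CPM. Arsb (a lysosomal sulfatase), Mxd4, Cd300lg and Serpinb8 fell 7.2-fold, 6.02-fold, 5.55-fold and 3.78-fold. Among abundant transcripts the secreted protease inhibitor Cst3 fell from 1285 ± 74.7 to 596 ± 56.7 CPM, Ahnak from 843 ± 314 to 229 ± 43.9 CPM and Lsp1, a cytoskeletal protein of leukocytes, from 530 ± 123 to 167 ± 10.3 CPM.

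Xist, the long noncoding RNA of X inactivation, was at 126, 0.41 and 161 CPM in M1 replicates 1 to 3 and at most 0.347 CPM in M0. M1 replicate 2 thus lay just above the M0 libraries, while M1 replicates 1 and 3 were far above all of them, and no library of the M2, CaP or SiO2 groups was above 0.79 CPM. The fitted change (log2 8.98 ± 1.43, adjusted p = 0.000434) therefore describes 2 of 3 libraries.

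By class of gene, 988 of 10866 protein-coding genes tested were higher (9.09%) and 597 lower (5.49%). Long noncoding genes were higher in 244 of 1298 (18.8%) and lower in 58 (4.47%), and of 1543 identifiers absent from the annotation used for names 360 were higher (23.3%) and 48 lower (3.11%). Pseudogenes were rarely DEGs, with 17 higher and 22 lower of 2902. Smart-seq2 reads do not keep the strand, so noncoding genes that overlap others cannot be told apart from them.

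Against M2 cells, which were compared with M1 in the same model (2679 of 16654 genes, 16.1%, past the same thresholds), several leading M1 genes differed as well. The log2 difference of M1 minus M2 was 9.02 for Il1b, 9.17 for Il6, 12.62 for Csf3 and 6.47 for Acod1 (adjusted p = 5.21e-08, 2.07e-10, 8.52e-10 and 3.9e-09). It was 5.03 for Upp1, 6.32 for Ccl22 and 2.43 for Muc5ac, where the log2 fold changes against M0 were 7.96, 7.65 and 6.62, and the difference between these contrasts, which share the M1 libraries, was not tested. Cish was lower in M1 than in M2, at 5.74 and 39.4 CPM, and Arg1, at 21.6 CPM in M1 and 1550 CPM in M2, also differed (log2 -2.79 and -6.16). Irf7, in contrast, was at 37.1 CPM in M1 and 38.8 CPM in M2 (adjusted p = 0.91). Cd14 was at 1403 CPM in M1, 281 in M0 and 43.8 in M2. The CaP and SiO2 groups had means of 1.05 and 1.93 CPM for Il1b, 0.0318 and 0.2 CPM for Il6 and 0.15 and 0.14 CPM for Nos2. Some genes lower in M1 were also below their M0 means in these groups. Their CaP and SiO2 means were 3093 and 3585 CPM for mt-Cytb, 359 and 554 for Ahnak and 868 and 994 for Cst3. Lsp1, at 530 and 532 CPM, was not below its M0 mean of 530 CPM by any such margin.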

How the data were processed

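RNA from MH-S cells was sequenced by Smart-seq2, which has no molecular identifiers and does not keep the strand. The authors aligned and quantified the reads with a STAR and Salmon pipeline (build GRCm39 in the submitters' processing notes) and deposited raw counts per gene and library, which were used as deposited. Identifiers were given symbols from an annotation of GRCm38, used for names only, so that 51487 of 78317 matched, and the symbol Aldoa, shared by 2 identifiers, was not assigned. Promoter windows were taken from RefSeq on GRCm38.p6.

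Genes were kept by edgeR's filter by group (16654), libraries were scaled by TMM, and a quasi-likelihood model with the 5 groups as its only term was fitted to all 15 libraries in R 4.3.3 with edgeR 4.0.16 and limma 3.58.1. P-values were adjusted over all genes tested by Benjamini-Hochberg. DESeq2 1.42.0, a model with the replicate number as a block, other filters and scalings, and models without each library in turn were alternatives. The model was tried on simulated counts before use. A gene counted as off in a group at or below 3 counts in each library. Bounds and 95% exact Poisson intervals cover counting error only. With 3 libraries against 3, an exact permutation test of a single gene cannot go below p = 0.1, so none was used.

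Genes were named as follows: Il1b, Il6 and Nos2, and, among DEGs with at least 5 CPM and no overlap, those leading by fold change, by p, by difference in CPM or by level among genes off in one group, and from each list the DEGs with the largest change and the members that define it or go against it. The lists, the members and this rule were chosen with earlier results of these data known. M0 and M1 libraries with the same replicate number deviated together from their group means (r = 0.292, 0.275 and 0.206 for numbers 1, 2 and 3). Libraries of unlike number had r of -0.313 to 0.0676. The replicate number was therefore a block in 1 alternative model, but the main model and the models without 1 library did not use it. The labels give only the number, so a pairing of the libraries is not known. Results for some members of the lists are not reported here, although the counts over a list include them.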

Additional observations from a re-analysis of the deposited data

How the results depend on the processing

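No DEG shared with an alternative changed direction. The count of DEGs was 2793 with DESeq2, 2121 with the replicate block and 1943 from the 6 M0 and M1 libraries alone, and 2280, 2057 and 1704 of these were among the 2342. Beside the values given with the results, the replicate block moved the higher DEGs among AP-1 factors from 5 to 3 and among Toll-like and cytosolic sensors from 4 to 2, and the lower DEGs among chemoattractant receptors from 2 to 1 and among metalloproteinases from 1 to 0, and no other list count by over 1.5 times. Leaving out 1 library gave 1511 to 2064 DEGs, 1121 to 1447 higher and 352 to 617 lower, with 58 to 186 genes off in M0 and higher and 28 to 52 off in M1 and lower. Without both M0 replicate 3 and M1 replicate 3, chosen after seeing the data, there were 1099 DEGs, 828 higher and 271 lower. When every gene with a count was tested, 1267 DEGs were lower, 269 were off in M0 and higher, and 161 off in M1 and lower. With at least 10 counts in every library no gene could be off, which gave 0 and 0 by construction. A floor of 10 counts gave 161 and 106, thinning to the smallest library 85 off in M0, the 6 libraries alone 9 off in M1, and an absolute log2 fold change above 1 left 404 lower genes. The cause of these shifts was not tested. Depth sets the floor, since 3 counts are 0.079 to 0.347 CPM in the M0 libraries.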
